A study of Mus musculus with 37 samples.

Results

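The clustered protocadherins were read from a table of gene counts in bulk RNA of mouse pancreatic tumours. A row belonged to the group when its symbol began with Pcdha, Pcdhb or Pcdhg followed by a digit, or with Pcdhga, Pcdhgb, Pcdhgc or Pcdhac and a digit, which gave 24 of the 39017 rows. Of these, 22 were the single-exon β genes Pcdhb1 to Pcdhb22, 1 was an α row named Pcdha2 and 1 was a γ row named Pcdhga9. High levels of Pcdhb16 and Pcdhb19 in the clone bulk_6499c3 were known when the group was proposed, so the levels of those 2 genes in that clone are given as a description.

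The tumours grew under the skin of C57BL/6 mice for 3 weeks from implanted pancreatic tumour cell clones, and no treatment was given. Each clone is 1 cell line, named by the start of the library title (bulk_6499c3), and the ending (no1 to no4) numbers its tumours. The plots leave out the prefix bulk of these names. The 34 labelled libraries carry the T cell phenotype high (15 tumours of 7 clones), low (15 tumours of 7 clones) or intermediate (4 tumours of 2 clones), and 3 more libraries have no such label. The sources used here do not state the driver alleles of the tumour cells, how the phenotype was measured or whether tumours of 1 clone came from separate mice. The p-values therefore measure only the spread between these samples, which may be technical.

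Clustered protocadherins are cell-surface adhesion proteins of the cadherin superfamily, encoded by neighbouring α, β and γ gene arrays. They are best known from neurons, where single cells switch on different small combinations of promoters and the proteins bind their like on other membranes, so that branches of 1 neuron recognise each other. Each β gene is a single coding exon with its own promoter, whereas each α or γ variable exon is spliced to constant exons that its array shares. Promoters of the arrays depend on CTCF, cohesin and DNA methylation, and methylation of whole arrays has been described in several tumour types.

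All 24 rows lie on the plus strand of mouse chromosome 18 (GRCm38, the mm10 assembly; GENCODE M21). The β genes span chr18:37264938-37524479 in the order of their numbers. Pcdhb16 lies at 37477814 to 37483038 and Pcdhb19 at 37496991 to 37504128. Pcdhb17 and Pcdhb18, which lie between them, are 10 bases apart, and Pcdhb20 begins 135 bases after Pcdhb19. To see how far reads could be shared, every stretch of 75 bases in a gene's exons was looked up in the transcripts of all other genes, read in their own direction. Overlap of exons on opposite strands is not counted in this. For 20 of the 22 β genes at most 4.05% of the stretches occurred elsewhere, with 0.291% for Pcdhb16, 1.20% for Pcdhb17 and 1.08% for Pcdhb19. Pcdhb21 (8.96%) and Pcdhb22 (5.995%) overlap each other by 455 exon bases, so their reads are less certain.

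The α and γ arrays could not be read isoform by isoform. GENCODE M21 holds 14 α and 22 γ genes, and the table has 1 row for each array. The identifier of the α row is called Pcdha11 in GENCODE M21, and 57.7% of its stretches occur in other genes. The identifier of the γ row is called Pcdhgc4 there, and 36.6% of its stretches are shared. Both rows were therefore treated as sums of unknown make-up, and the choice among α or γ isoforms, C-type genes included, was not analysed here.

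Levels below are counts-per-million values (CPM) on TMM library sizes, where TMM rescales each library to the bulk of its genes. The main set was the 18 labelled libraries numbered 2 or later, from 15 clones (7 high, 6 low, 2 intermediate), with 26.47 to 44.36 M counts each. The 16 libraries numbered 1 held 7.39 to 102.33 M counts and, in every one, transcripts of liver and heart (Cps1, Serpina3k, Myh6 and Myh7 summed to 258 to 5922 CPM of the total counts). Among the later libraries only bulk_2669c4_no2 had these 4 transcripts at a high level (2884, against at most 0.539 in the other 17). Alb, the liver's albumin gene, was at 16.4 CPM in bulk_6499c3_no2, against a median of 0.235 CPM in the other later libraries. The β genes together took 313 to 3916 counts in a labelled library, so that counting error is large for the lower genes. Intervals and floors below cover counting error only.

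Transcripts of most β genes were found in every clone, at low levels that differed from gene to gene. At a listing level of 0.5 CPM, a later library held a median of 14 β genes (8 to 17). Pcdhb5, Pcdhb16, Pcdhb17, Pcdhb19, Pcdhb20 and Pcdhb22 were listed in all 18 later libraries. Pcdhb1, Pcdhb2, Pcdhb6 and Pcdhb8 were listed in none, and the other 12 in some. Pcdhb1 had 0 counts in all 18, where 3 counts would be 0.0676 to 0.113 CPM. Just above the listing level by their median were Pcdhb4 (0.772 CPM) and Pcdhb21 (0.777 CPM), and just below it were Pcdhb10 (0.498), Pcdhb13 (0.437), Pcdhb3 (0.383) and Pcdhb11 (0.364). In bulk RNA, fewer cells that express a gene and less RNA per cell cannot be told apart, and neither can a mixture of cells that each use 1 gene from cells that use many.

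No β gene took over the array in the labelled later libraries. Compared per kb of exon, the leading β gene held 12.7% to 28.2% of the summed β level of a later library, and the leading 3 held 36.6% to 52.9%. Pcdhb17 led in 13 of the 18 later libraries and was among the leading 3 in all of them. Taken over the later libraries of a clone, it led in 12 of 15 clones. Pcdhb5 led in bulk_6419c5 (0.807 CPM per kb, against 0.687 for Pcdhb17), and Pcdhb9 led in bulk_6499c4 (1.10) and bulk_6555c3 (1.41). Pcdhb12 shares 1927 of its 3034 exon bases with a GENCODE gene that has no row in the table. With those bases left out of its length, a scale chosen after seeing the data, it led in 6 clones and Pcdhb17 in 7. In the libraries numbered 1, the leading gene of the clone's later libraries led again in 8 of 15 clones and was among the leading 3 in 13. Pcdhb17 led in 7 of these 16 libraries. Pcdhb9 led in those of bulk_6419c5, bulk_6422c1, bulk_6422c5, bulk_6499c4, bulk_6556c4, bulk_6620c1 and bulk_6694c2.

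**Figure D1:**
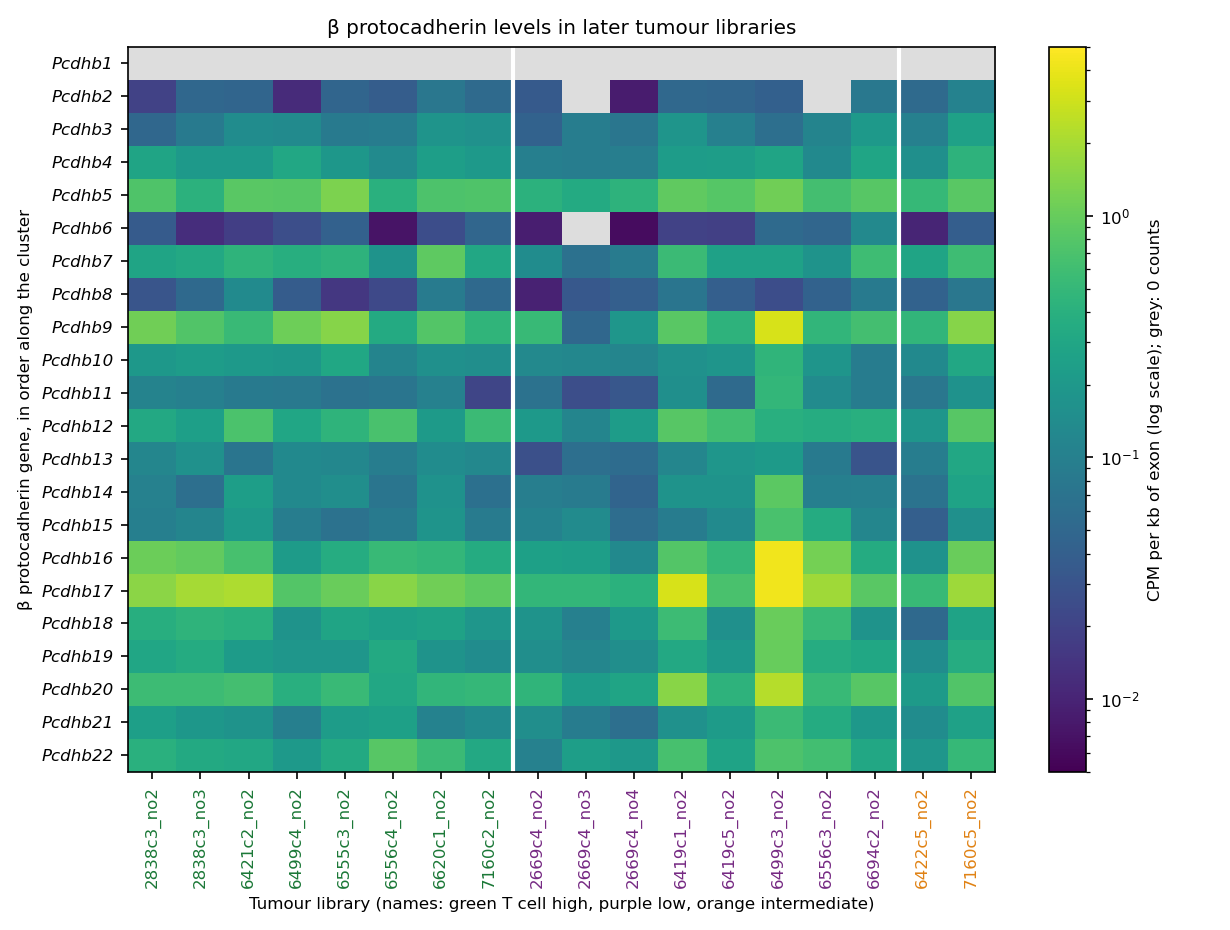
Level of each β gene (rows, in order along the cluster) in the 18 later libraries (columns, grouped by phenotype), as CPM per kb of exon on a log colour scale, with 0 counts in grey. Pcdhb17 is bright in most columns, Pcdhb1 is at 0 counts throughout, and bulk_6499c3_no2 is bright from Pcdhb14 to Pcdhb22 and at Pcdhb9.

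The clone bulk_6499c3 stood above the rest for much of the array. Its β genes summed to 102 CPM in the later library, against 12.1 to 50.5 CPM in the other 17 later libraries. Of the 22 genes, 11 were highest in bulk_6499c3_no2. Pcdhb16 was at 22.4 CPM there (758 counts), against 0.689 to 6.14 CPM with a median of 2.56 in the others, an 8.75-fold difference from that median. Pcdhb19 was at 7.11 CPM (241 counts), against 0.854 to 2.60 CPM with a median of 1.43, a 4.99-fold difference. Both values lay outside the range of the other libraries.

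The higher levels of bulk_6499c3_no2 were not spread evenly along the array. From Pcdhb14 to Pcdhb22 every gene was more than 2-fold above the median of the others, from 2.21-fold for Pcdhb22 and 3.19-fold for Pcdhb21 to 8.62-fold for Pcdhb14 and 8.75-fold for Pcdhb16. Pcdhb17 was at 20.3 CPM, against 1.93 to 15.4 CPM elsewhere, and Pcdhb20 at 8.27 CPM, against 0.765 to 5.24 CPM. Pcdhb9, Pcdhb10 and Pcdhb11 were also highest in that library, at 6.02-fold, 2.75-fold and 6.00-fold. Toward the other end of the array, Pcdhb2, Pcdhb3, Pcdhb7 and Pcdhb8 were at 0.879-fold, 0.617-fold, 0.825-fold and 0.579-fold. Pcdhb4 was at 1.38-fold, Pcdhb5 at 1.51-fold and the low Pcdhb6 at 2.84-fold (0.207 CPM). These 7 genes lay inside the range of the others.

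The second tumour of the clone, bulk_6499c3_no1, repeated part of this pattern at a lower depth (7.39 M counts). Pcdhb16 was at 14.9 CPM (115 counts), against 1.32 to 5.26 CPM in the other 15 libraries numbered 1. Pcdhb19 was at 8.15 CPM (63 counts), against 0.800 to 4.23 CPM. Pcdhb14 (2.59 CPM, against at most 1.60), Pcdhb21 (2.98, against at most 1.60) and Pcdhb22 (4.01, against at most 3.19) were also the highest of the libraries numbered 1. In both tumours, 7 genes were more than 2-fold above the median of the other libraries, namely Pcdhb14, Pcdhb16, Pcdhb18, Pcdhb19, Pcdhb20, Pcdhb21 and Pcdhb22.

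The 2 tumours differed at other genes. Pcdhb9 was at 9.92 CPM in bulk_6499c3_no2 and 1.68 CPM in bulk_6499c3_no1, where it ranked 13th of 16 libraries. Pcdhb15 was at 1.95 and 0.259 CPM, Pcdhb11 at 2.15 and 0.388 CPM, and Pcdhb17 at 20.3 and 6.60 CPM. The same 4 liver and heart transcripts summed to 3464 CPM in bulk_6499c3_no1 and 0.300 CPM in bulk_6499c3_no2, and their part in these differences was not tested.

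**Figure D2:**
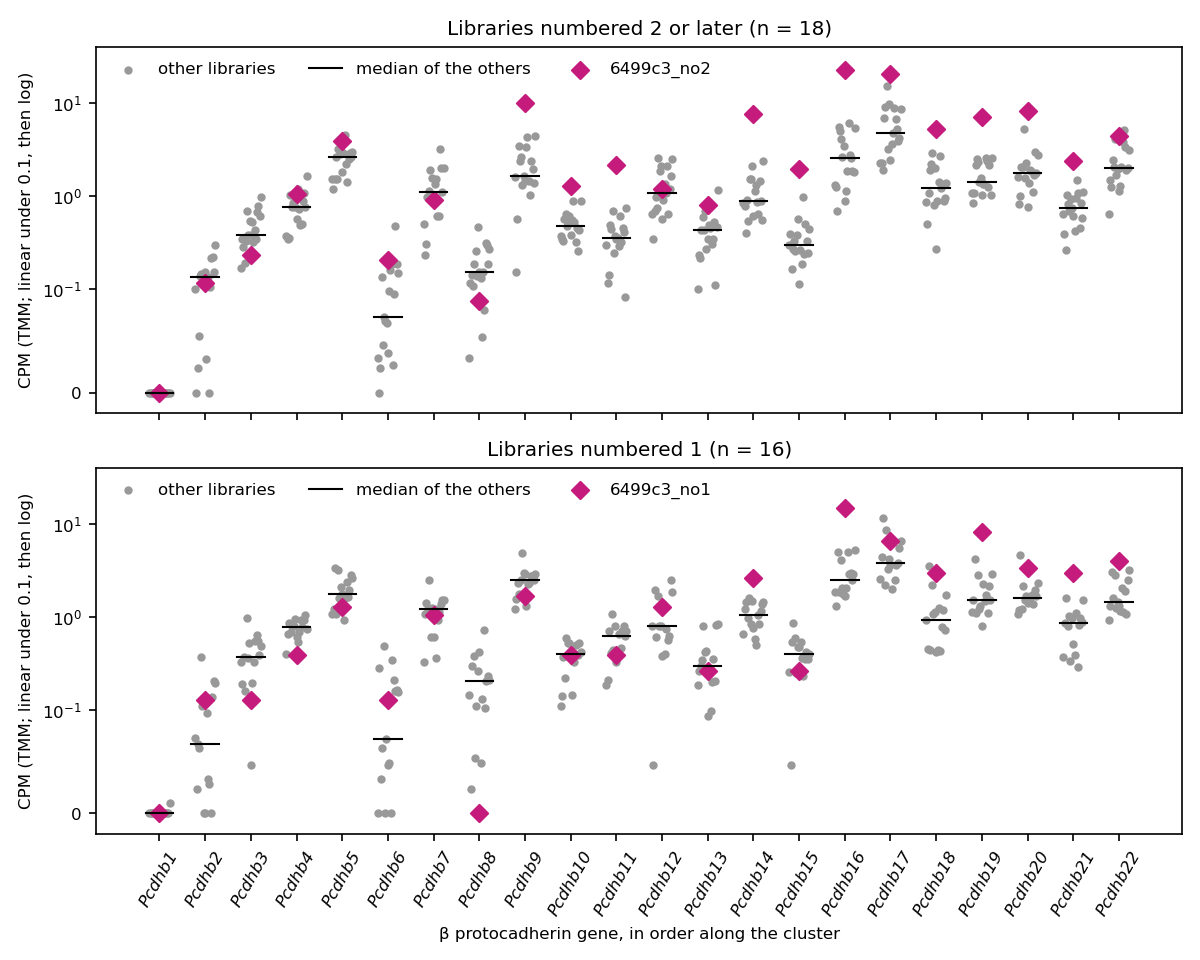
Level (CPM, linear under 0.1 and logarithmic above) of each β gene in bulk_6499c3 (diamonds) and in the other libraries (grey points, with their median as a line), for libraries numbered 2 or later and for libraries numbered 1. Pcdhb14, Pcdhb16, Pcdhb19 and Pcdhb21 are above all others in both panels, and Pcdhb9, Pcdhb10 and Pcdhb11 in the upper panel but not in the lower.

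The shares of all β counts are likewise a description, since Pcdhb16 and Pcdhb19 were known to be high in this clone. By share, Pcdhb16 was above the other libraries in both tumours, and Pcdhb19 only in bulk_6499c3_no1. Pcdhb16 took 22% of the β counts in bulk_6499c3_no2 (95% exact Clopper-Pearson interval 20.6 to 23.4%) and 28.1% in bulk_6499c3_no1 (23.8 to 32.7%). The other later libraries held 4.89% to 16.5%, and the other libraries numbered 1 held 7.09% to 18.5%. Pcdhb19 took 15.4% in bulk_6499c3_no1, above the 4.30% to 13.1% of the others, but 7% in bulk_6499c3_no2, inside the 4.11% to 8.76% of the others. Pcdhb17 took 20.0% in bulk_6499c3_no2, and its highest share was 30.5% in bulk_6419c1_no2.

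Markers of other cells were checked in the same libraries. The 6 neuronal genes (Rbfox3, Snap25, Syt1, Stmn2, Gap43 and Tubb3) summed to 36.4 CPM in bulk_6499c3_no2, against 15.7 to 193 CPM in the other later libraries, with Syt1 at 0 counts. The 7 fibroblast genes summed to 17400 CPM, the third highest of the 18 (3380 to 30400 CPM in the others), and the 6 epithelial genes to 7970 CPM (3950 to 9960 CPM). Over the 15 clones, the log2 sum of the β genes had a Pearson correlation of 0.37 with the log2 sum of the fibroblast genes, 0.07 without the 2 clones farthest out in fibroblast genes. The correlation was 0.49 with the endothelial genes (0.61 without the 2 farthest clones, 0.46 without bulk_6499c3), 0.33 with the leukocyte genes, 0.02 with the neuronal genes and -0.03 with the epithelial genes. In bulk_6499c3_no2 the endothelial genes summed to 222 CPM (79.5 to 331 CPM in the others) and the leukocyte genes to 430.0 CPM (211 to 1010 CPM). The part of these cells in the levels of bulk_6499c3 was not tested.

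Other clones had patterns of their own. In bulk_6419c1, a T cell low clone, Pcdhb17 was at 15.4 CPM in the later library and 11.5 CPM in the library numbered 1, and Pcdhb20 at 5.24 and 4.57 CPM. With bulk_6499c3 set aside, both genes were the highest of their sets in both tumours. In that clone 5 of 21 β genes exceeded 2-fold the median of the libraries of the other clones, without bulk_6499c3, in both tumours. The low bulk_2669c4 enters the later median with 3 libraries. The 5 genes were Pcdhb12, Pcdhb17, Pcdhb18, Pcdhb20 and Pcdhb22, whereas Pcdhb16 was at 1.84-fold and 2.23-fold. Pcdhb4 was at 1.09-fold and 1.14-fold.

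In the later library of bulk_7160c5, a T cell intermediate clone, the β genes were higher along the whole array. This library was the highest of the 17 without bulk_6499c3 for 9 of the 21 β genes with counts, spread from Pcdhb2 to Pcdhb19. All 21 were above the median of the later libraries of the other clones, without bulk_6499c3 (1.16-fold to 2.97-fold). The same library had the highest sums of the fibroblast (30400 CPM), endothelial (331 CPM) and leukocyte genes (1010 CPM), and the part of these cells was not tested. The library numbered 1 of the same clone repeated this in part. Of 10 genes above 2-fold in the later library, 5 were so in both tumours (Pcdhb2, Pcdhb6, Pcdhb12, Pcdhb13 and Pcdhb16). Pcdhb16 was at 5.38 CPM in the later library and 5.26 CPM in the library numbered 1. Pcdhb14 was at 2.72-fold and 1.44-fold, Pcdhb9 at 2.70-fold and 1.20-fold, and Pcdhb4 at 2.13-fold and 0.942-fold.

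The lowest mean β sum over later libraries was that of bulk_2669c4, a T cell low clone (13.3 CPM). Its 3 later tumours summed to 15.3, 12.1 and 12.5 CPM and its library numbered 1 to 14.5 CPM. The later library of bulk_6422c5 was close, at 15.1 CPM, and that clone was the lowest for Pcdhb15, Pcdhb16, Pcdhb18 and Pcdhb20 by clone mean. The 3 later libraries of bulk_2669c4 held the lowest value for 16 of the 21 β genes among the 17 without bulk_6499c3. Pcdhb2 was a tie at 0 counts with bulk_6556c3_no2. Having the most later libraries, bulk_2669c4 also had more chances of a lowest value. By clone mean it was the lowest for Pcdhb4, Pcdhb6, Pcdhb7, Pcdhb9, Pcdhb12, Pcdhb17, Pcdhb19 and Pcdhb22. Pcdhb7 was at 0.504, 0.233 and 0.309 CPM in its 3 later libraries and at 0.329 CPM in the library numbered 1. Pcdhb9 varied most within this clone, at 1.61 CPM in the tumour with liver and heart transcripts and 0.155 and 0.571 CPM in the other later ones. In bulk_6620c1, a T cell high clone, Pcdhb7 was the highest of the later libraries at 3.18 CPM, but its library numbered 1 held 1.13 CPM.

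Clones whose names share the number before the c need not resemble each other. The sources used here do not say what that number means. Pcdhb16 was at 22.4 CPM in bulk_6499c3 and 1.14 CPM in bulk_6499c4, a 19.6-fold difference, and the β sums were 102 and 23.4 CPM. Pcdhb17 was at 15.4 CPM in bulk_6419c1 and 3.20 CPM in bulk_6419c5. In bulk_6556c3 and bulk_6556c4 it was at 8.76 and 6.82 CPM, and in bulk_7160c2 and bulk_7160c5 at 4.19 and 8.57 CPM. With 1 later library for each of these clones, the differences had no replicate check within the later set.

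Whether clones differed beyond the spread between their own tumours was tested gene by gene with edgeR's quasi-likelihood test and Benjamini-Hochberg adjustment over all genes. In the 18 later libraries only bulk_2669c4 and bulk_2838c3 had more than 1 tumour, which left 3 residual degrees of freedom. Of 18257 genes tested, 0 were called at an adjusted p under 0.05 (background 0%), and 2512 had an unadjusted p under 0.05 (13.8%). Of the 24 rows, 21 passed the filter of a mean of 5 counts, which Pcdhb1, Pcdhb2 and Pcdhb6 did not. None was called, and 6 had an unadjusted p under 0.05 (Pcdhb14, Pcdhb16, Pcdhb17, Pcdhb18, Pcdhb19 and Pcdhb20), in a test that includes bulk_6499c3. Without bulk_2669c4_no2, the library with liver and heart transcripts, the background was 0.00554% and 0 rows were called. On simulated counts of the same size the test recovered 26.5% of genes changed 4-fold in 1 clone and 0% of those changed 2-fold.

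With all 34 labelled libraries the same test had 18 residual degrees of freedom and called 2569 of 18799 genes, a background of 13.7%. It called 7 of the 21 rows that passed the filter, namely Pcdhb7, Pcdhb14, Pcdhb16, Pcdhb17, Pcdhb19, Pcdhb20 and Pcdhb21. Because bulk_6499c3 entered the choice of the group, the test was run again without it, where the background was 13.5%. Then 5 rows were called, Pcdhb17 (edgeR adjusted p = 0.00627), Pcdhb7 (0.00933), Pcdhb20 (0.0185), Pcdhb16 (0.0271) and Pcdhb19 (0.0426). Pcdhb14 (0.390) and Pcdhb21 (0.293) were not called without that clone. With the tumour number as a replicate block and bulk_6499c3 included, the background was 27.6% and 7 rows were called. Against the same fit without the block, Pcdhb21 was no longer called (edgeR adjusted p = 0.0399 without and 0.0547 with the block) and Pcdhb18 was (0.0712 and 0.0377). On the later libraries alone and without bulk_6499c3, 0 genes and 0 of these rows were called, and their edgeR adjusted p ranged from 0.241 for Pcdhb17 to 0.538 for Pcdhb19.

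The 5 genes differed between clones in their order. For Pcdhb17, the clone levels in the later libraries other than bulk_6499c3 ran from 15.4 CPM in bulk_6419c1, 9.88 in bulk_6421c2, 8.76 in bulk_6556c3, 8.57 in bulk_7160c5 and 8.03 in bulk_2838c3 down to 2.45 in bulk_6422c5 and 2.14 in bulk_2669c4. The 3 later tumours of bulk_2669c4 spread over 1.93 to 2.25 CPM and those of bulk_2838c3 over 6.93 to 9.14 CPM, so these 2 clones did not overlap. The levels of bulk_6556c3 and bulk_7160c5 lay inside the spread of bulk_2838c3, so their order is not resolved. For Pcdhb16, bulk_6556c3 (6.14 CPM), bulk_7160c5 (5.38) and bulk_2838c3 (5.29) followed bulk_6499c3, and bulk_2669c4 (1.08) and bulk_6422c5 (0.879) came last. For Pcdhb20, bulk_6419c1 (5.24 CPM) was followed at a distance by bulk_6694c2 (2.96) and bulk_7160c5 (2.75), and for Pcdhb7 the levels ran from 3.18 CPM in bulk_6620c1 to 0.349 in bulk_2669c4.

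The levels of clones in their later libraries and in their libraries numbered 1 were also set side by side, which for the 5 called genes restates the test over all libraries. Over the 14 clones without bulk_6499c3, Pearson's r of the log2 levels was 0.72 for Pcdhb20, 0.71 for Pcdhb17, 0.67 for Pcdhb7, 0.59 for Pcdhb16 and 0.53 for both Pcdhb12 and Pcdhb19. It was 0.06 for Pcdhb5 and 0.24 for Pcdhb9, although both were among the more abundant genes per kb. These values are descriptions over clones that share a host strain and, in the libraries numbered 1, liver and heart transcripts. The clone bulk_2838c3 was an exception for Pcdhb16, at 5.59 and 4.97 CPM in its later tumours and 1.32 CPM in the library numbered 1.

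**Figure D3:**
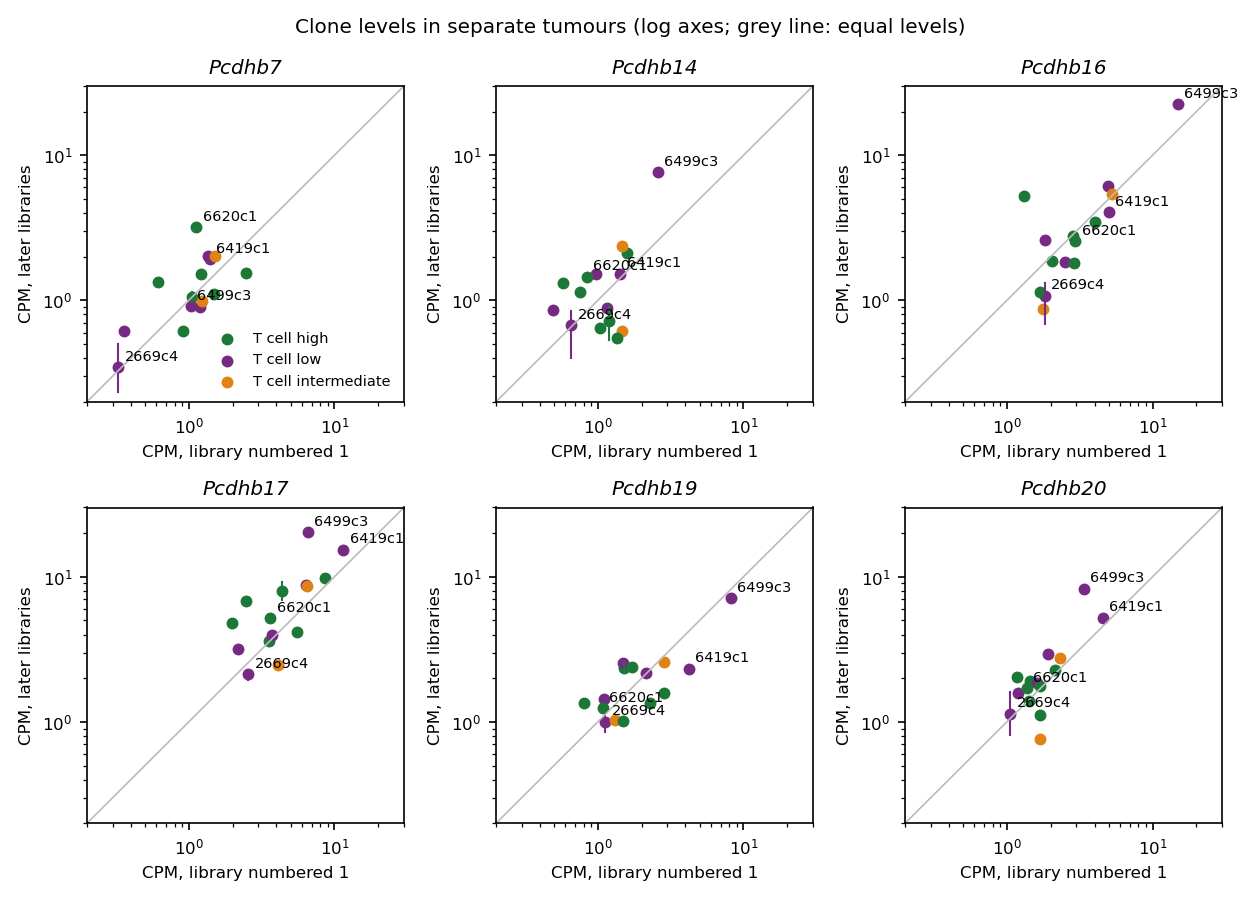
Level of 6 β genes in the library numbered 1 (horizontal axis) and the mean of the later libraries (vertical axis, with the range where a clone has several) for 15 clones, in CPM on log axes, coloured by phenotype. The clones bulk_6499c3 and bulk_6419c1 are at the upper right for Pcdhb17 and Pcdhb20, and bulk_2669c4 is at the lower left for Pcdhb7.

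The T cell phenotype was compared on counts summed per clone, with all 3 labels in 1 edgeR quasi-likelihood fit. Between high and low clones 0 of 17973 genes were called (background 0%), and 1196 genes (6.65%) had an unadjusted p under 0.05. DESeq2's Wald test called 60 of 31068 genes (background 0.193%) and 0 of 23 protocadherin rows. Of the 24 rows 20 passed the expression filter. None was called, 5 of the 20 were higher in high clones, and their median log2 difference of high minus low was -0.28, against 0.001 for all genes tested. Without bulk_6499c3 the median was -0.09 and 9 of 20 were higher. The direction turned under limma voom with a correlation within clones (median 0.03, 11 of 20 higher) and in the libraries numbered 1 alone (median 0.05, 12 of 22 higher).

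Pcdhb20 had the smallest p of the rows. It was at 1.75 ± 0.390 CPM in high clones (SD, n = 7) and 3.50 ± 2.76 CPM in low clones (n = 6), and 2.55 ± 1.65 CPM in low clones without bulk_6499c3 (n = 5). High clones reached 2.29 CPM, and low clones ran from 1.14 to 8.27 CPM. The log2 difference of high minus low was -1.002 ± 0.442 (SE, edgeR adjusted p = 0.715). The mean of Pcdhb17 was 6.08 ± 2.27 CPM over the high clones and 8.96 ± 7.42 CPM over the low ones, or 6.69 ± 5.48 CPM without bulk_6499c3. Its high minus low value on the log2 scale was -0.56 ± 0.495 (SE, edgeR adjusted p = 0.872), and -0.13 without that clone. The β sum was 29.4 ± 4.99 CPM over the high clones. Over the low clones it was 42.4 ± 31.6 CPM, and 30.6 ± 14 CPM once bulk_6499c3 was left out.

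The 2 intermediate clones, bulk_6422c5 and bulk_7160c5, lay far apart. Their β sums were 15.1 and 45.8 CPM, and Pcdhb16 was at 0.879 and 5.38 CPM. Of 17973 genes, 0 were called between intermediate and low clones (background 0%; 1197 genes, 6.66%, had an unadjusted p under 0.05) and 1 between high and intermediate clones (background 0.00556%). Neither comparison called any of the 20 rows, and none had an unadjusted p under 0.05. The median log2 difference of intermediate minus low over the protocadherin rows was -0.295, against 0 for all genes tested. Leaving out either intermediate clone keeps only 1, and the sign depended on which was kept. The median was 0.102 without bulk_6422c5 (all genes -0.061) and -1.048 without bulk_7160c5 (all genes -0.088).

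**Figure D4:**
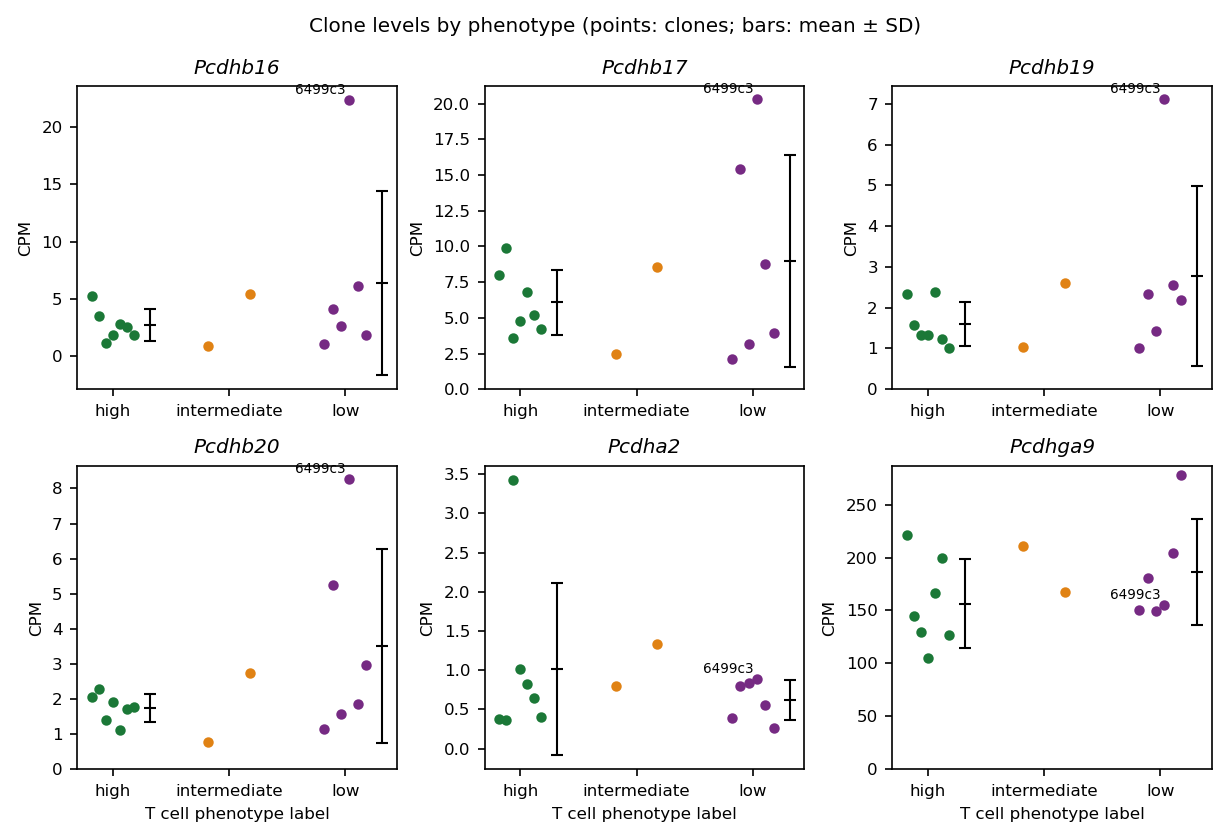
Clone levels (CPM, mean of the later libraries of each clone) of 4 β genes and of the α and γ rows by phenotype label, with mean and SD beside the high (n = 7) and low (n = 6) clones. The ranges of high and low clones overlap in each panel, and bulk_6499c3 is the highest low clone for the 4 β genes.

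The α row was low in nearly all tumours. It ran from 0.155 to 3.43 CPM in the later libraries with a median of 0.600 CPM, and 11 of 18 reached the listing level. The value of 3.43 CPM came from bulk_6499c4_no2 (105 counts), the sister clone of bulk_6499c3 by number, and the next highest was 1.34 CPM in bulk_7160c5_no2. The library numbered 1 of bulk_6499c4 held 0.282 CPM. The same later library had the highest neuronal sum (193 CPM), of which Stmn2, a protein that binds tubulin in growing axons, made up 142 CPM, and the part of these transcripts in the α row was not tested.

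The γ row was the most abundant of the 24 in each library, at 105 to 278 CPM in the later set with a median of 169 CPM. Since its exons are not known from the table, it was not compared with the β genes per kb. Highest were bulk_6694c2_no2 (278 CPM) and bulk_2838c3_no3 (250.0 CPM), and bulk_6499c3_no2 was at 155 CPM, inside the range. The libraries numbered 1 were at 74.6 to 163 CPM, and in each clone with both they lay below the mean of the later ones, except in bulk_6555c3 and bulk_7160c2. High and low clones were at 156 ± 41.9 CPM (SD, n = 7) and 186 ± 50.0 CPM (n = 6). Neither the α nor the γ row was called in any comparison run.

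**Figure D5:**
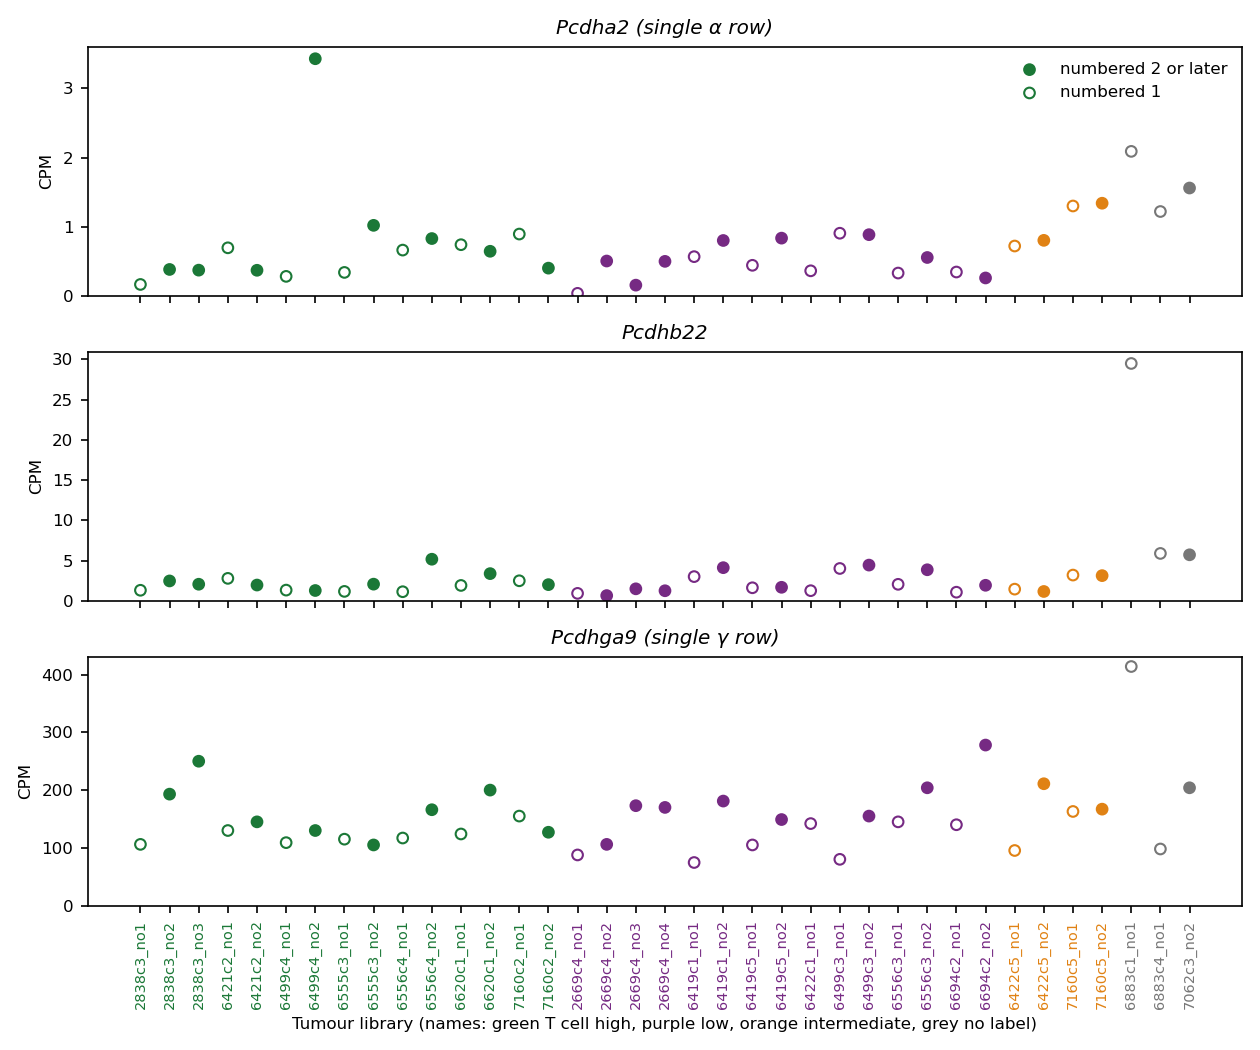
Level in CPM of the α row, of Pcdhb22 and of the γ row in all 37 libraries, grouped by label, with filled points for libraries numbered 2 or later and open points for those numbered 1. The highest points are bulk_6499c4_no2 for the α row and the unlabelled bulk_6883c1_no1 for Pcdhb22 and the γ row.

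The genes whose log2 levels were most like those of Pcdhb16 over the 18 later libraries included its neighbours. Among 14324 genes Pcdhb17 (Pearson's r = 0.90), Pcdhb19 (0.90) and Pcdhb18 (0.85) ranked 1st, 2nd and 4th. Without bulk_6499c3 their r was 0.875, 0.822 and 0.78. Outside the fixed lists came Etv3, an ETS family transcription factor (0.88, and 0.86 without bulk_6499c3), Lrp1, an endocytic receptor (0.83), and Arsb, a lysosomal sulfatase (0.815, and 0.823 without bulk_6499c3). For Pcdhb19 the neighbours most alike were Pcdhb16 (0.90, and 0.82 without bulk_6499c3), Pcdhb17 (0.85 and 0.805) and Pcdhb18 (0.80 and 0.71). Outside the lists came Zfp26, a zinc finger protein (0.80, and 0.62 without bulk_6499c3), Lmf1, which matures lipases (0.77), and Etv3 (0.75). These are correlations over libraries of 15 clones in which bulk_6499c3 was known to be high.

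Genes known to act on the arrays were read from the same edgeR fits, in which 0 of 18257 genes were called among clones and 0 of 17973 between high and low clones (background 0%), so that counts of 0 say nothing particular about a list. Of 23 genes for promoter choice and chromatin, all were tested and 0 were called. Smc3, a cohesin subunit, had the smallest p among clones (adjusted p = 0.306) and was at 118 CPM in bulk_6499c3_no2, against 97.7 to 252 CPM. Ctcf, which binds the promoters and enhancers of the arrays, was at 105 CPM there, against 77.4 to 135 CPM. The maintenance methyltransferase Dnmt1 was highest in bulk_6499c3_no2 at 302 CPM, against 81.0 to 173 CPM in the other later libraries. Dnmt3a was also highest there (151 CPM, against 52.1 to 104), and Stag2 (73.5, against 90.1 to 204) and Hdac1 (71.7, against 73.3 to 112) were lowest. In bulk_6499c3_no1 Dnmt1 was at 109 CPM, inside the 61.1 to 141 CPM of the others. Dnmt3a (60.3, others 50.1 to 92.9) and Stag2 (154, others 39.9 to 348) were also inside, and Hdac1 was below (51.8, others 53.1 to 114). The part of these genes in the β levels was not tested. Among 16 partners and processing enzymes 0 were called, with the receptor tyrosine kinase Ret first among clones (adjusted p = 0.215).

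Protocadherins outside the arrays were compared in the same way. The 12 such genes summed to 246 CPM in bulk_6499c3_no2, the highest of the later libraries (96.1 to 237 CPM in the others). In bulk_6499c3_no1 the sum was 151 CPM, inside the 101 to 193 CPM of the other libraries numbered 1. Of the 12 genes 11 were tested among clones and 0 were called by edgeR, as for all genes. Pcdh7 had the smallest p (adjusted p = 0.130) and ran from 3.14 to 107 CPM in the later libraries, with 73.0 CPM in bulk_6499c3_no2. It also had the smallest p of this list between high and low clones, with a log2 difference of -2.40 ± 0.525 (SE, edgeR adjusted p = 0.530). Of 13 classical and FAT cadherins 0 were called, and Cdh2, N-cadherin, came first among clones (adjusted p = 0.175, 2.69 to 104 CPM). The marker genes with the smallest p among clones were Epcam for epithelium (edgeR adjusted p = 0.342), Pdgfra for fibroblasts (0.265), Cdh5 for endothelium (0.328), Cd3e for leukocytes (0.637), Snap25 for neurons (0.175) and Myh7 for liver and heart (0.508).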

How the data were processed

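The authors deposited whole-number read counts per gene (39017 rows, 37 tumour libraries, not normalised as judged from the values). STAR, featureCounts and mm10 are named per the submitters' processing notes. For the software versions, the annotation, strandedness and multi-gene reads: not given in the sources used here. Of the identifiers, 37693 were found in GENCODE M21 and 1324 were not. The design assumed a row per α and γ isoform, and the table holds 1 each.

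Counts were analysed with edgeR 4.0.16 (R 4.3.3): TMM, quasi-likelihood tests, Benjamini-Hochberg adjustment over all genes, threshold 0.05. Phenotypes were tested on counts summed per clone over libraries numbered 2 or later, after edgeR's default expression filter, and clones on single libraries with a mean of at least 5 counts. Alternatives were DESeq2 1.42.0, limma 3.58.1 (voom), no filter, other sets of libraries and leaving out clones. Levels are CPM, and log2 levels for correlations used a prior count of 2, over genes with a mean of at least 1 CPM where genes most alike were sought. The lengths for CPM per kb are exon bases not shared with another row. The tests were checked on simulated counts of 17973 genes, of which 200 were changed between high and low clones. Of these 53% were recovered at 2-fold (4 false calls) and 99.5% at 4-fold (9 false calls). In the real fit Pcdh7, at a log2 difference of -2.40, was not called, so these rates need not hold for the real counts.

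The members and gene lists were chosen with earlier results of these data known. Named are Pcdhb16, Pcdhb19, the leading β genes, rows called in a test, rows nearest the listing level, the gene of each list with the smallest p among clones, and the 3 genes outside the lists most correlated with Pcdhb16 and with Pcdhb19. Other named genes were chosen after their values were seen. The Schwann cell markers are not reported here.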

Additional observations from a re-analysis of the deposited data

Results flagged for a closer look

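A value far from the others was sought in 46 groups of clone levels (Dixon's test at the 95% level, high and low clones apart). Pcdhb16 and Pcdhb19 in low clones, which were known to be high in bulk_6499c3, were left out. Such a value was found in 6 groups, and chance alone marks about 1 in 20 groups. That rate is no benchmark here, since neighbouring genes were correlated and bulk_6499c3 was known to be high. Pcdhb1, at 0 in every clone, could not be flagged. Among low clones bulk_6499c3 was the outlying one for 4 genes, which come from the same library. Pcdhb14 was at 7.64 CPM (next clone 1.53), Pcdhb9 at 9.92 (2.62), Pcdhb11 at 2.15 (0.691) and Pcdhb10 at 1.30 (0.524). Among high clones, the α row Pcdha2 was at 3.43 CPM in bulk_6499c4 (next 1.02) and Pcdhb7 at 3.18 CPM in bulk_6620c1 (1.55).

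The 3 libraries with no phenotype label exceeded the highest labelled library for 4 rows, counting values above the floor of 3 counts. Pcdhb22 was at 29.5 CPM in bulk_6883c1_no1 (4449 counts), 5.88 CPM in bulk_6883c4_no1 and 5.71 CPM in bulk_7062c3_no2, against at most 5.16 CPM in labelled libraries. In bulk_6883c1_no1 it held 46.0% of the summed β level per kb. Pcdhb2 was at 0.590 CPM in bulk_6883c1_no1 (labelled at most 0.374), Pcdhb5 at 4.98 CPM in bulk_6883c4_no1 (4.56) and the γ row Pcdhga9 at 414 CPM in bulk_6883c1_no1 (278). In bulk_6883c1_no1 the neuronal genes summed to 141 CPM and the epithelial genes to 1570 CPM, and their part in these levels was not tested.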

How the results depend on the processing

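No protocadherin row was called between phenotypes under any of 22 alternatives per comparison. The genes called between high and low clones were 0 in all but DESeq2's Wald test (60). Between intermediate and low clones they were 26 with DESeq2, 2 with limma voom and 0 to 198 when 1 clone was left out (198 without bulk_6422c5, 2 without bulk_7160c5, 1 without bulk_7160c2). Between high and intermediate clones, where 1 was called, they were 22 with DESeq2, 2 without a filter, 0 with all libraries, 0 with the libraries numbered 1 only, and 0 to 6 when 1 clone was left out (6 without bulk_6422c5, 3 without bulk_7160c2, 2 without bulk_7160c5, and 0 without bulk_2669c4, bulk_2838c3, bulk_6419c5, bulk_6499c3, bulk_6499c4, bulk_6555c3, bulk_6556c4 or bulk_6620c1). Among clones, where 0 genes and 0 protocadherin rows were called, they were 456 and 0 without a filter, 1 and 0 without bulk_2669c4_no2, 3832 and 4 with DESeq2's likelihood ratio test, 2569 and 7 with all libraries, and 2538 and 5 with all libraries but bulk_6499c3. With all libraries and the tumour number as a replicate block, 5186 genes and 7 protocadherin rows were called, with Pcdhb18 in place of Pcdhb21. The labels do not say that a tumour number marks a shared batch. The median over the protocadherin rows between high and low clones turned from -0.28 to 0.03 under limma voom with a correlation within clones, and the log2 difference of Pcdhb17 between these groups from -0.56 to 0.028. Pcdhb17 led 7 clones instead of 12 once bases shared with any GENCODE gene were left out. The causes were not tested. The runs on libraries numbered 1 only, without bulk_6499c3 among clones, and on bases shared with any GENCODE gene were chosen after seeing the data. Low counts limit Pcdhb1, Pcdhb2, Pcdhb6 and Pcdhb8, and bulk_6499c3_no1 has the lowest depth, where 3 counts are 0.406 CPM.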
